A study of Drosophila melanogaster with 12 samples.

Results

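Transcript levels of S2R+ cells kept at 11 °C were set against those of the same cells kept at 14 °C. S2R+ is an established line of Drosophila melanogaster cells of embryonic origin with hemocyte character. The arrays were chosen by their titles, 3 labelled 11 °C and 3 labelled 14 °C, which are 6 of the 12 arrays of the series. The other arrays, 3 at 25 °C and 3 at 30 °C, entered as part of the estimate of the spread and as levels for orientation. All cultures grew in the same serum-supplemented Schneider's medium, were plated for 24 h and then spent 24 h at their temperature as biological replicates. Plated cell numbers differed, at 4500000 cells for 11 °C, 3500000 for 14 °C, 1700000 for 25 °C and 1500000 for 30 °C, so cell number at plating and temperature cannot be told apart. The numbers were chosen so that densities at harvest would be alike. The design holds 1 cell line and 1 time point. The study places 14 °C at the lower end of the range that these cells tolerate and 11 °C beyond it. It drew this placement in part from the Hsp transcripts on these same arrays. The comparison asks which transcripts separate the 2 temperatures so placed.

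The cells of a fly take on the temperature around them. Below the tolerated range, cells slow or stop dividing, membranes stiffen and proteins may misfold. The best known transcriptional answer to protein misfolding is the heat shock response, in which the factor Hsf drives genes for chaperones such as Hsp70 and the small Hsps. Proliferation is read from the genes of DNA replication, in which the origin recognition complex (ORC), Cdc6 and dup load the MCM helicase on chromatin, GINS and Cdc45 turn it on, and DNA polymerase alpha-primase starts each new strand. Hemocytes are the blood cells of the fly and make antimicrobial peptides when the Toll and Imd pathways are switched on.

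Each array held 43603 gene spots, of which 53.9% to 61.1% were well above background at 11 and 14 °C. The 75th percentile of the processed signal, the background-corrected intensity of a spot, ranged from 1382 to 2111 units over the 6 arrays, and 0 gene spots were saturated. The number of arrays limits the precision. Mean Pearson's r across features was 0.988 between the arrays at 11 °C, 0.993 between those at 14 °C and 0.985 between the temperatures. The ranges met, since the lowest r within a temperature was 0.985 and the highest between temperatures 0.988. The median SD over all features was 0.24 on the log2 scale at 11 °C and 0.13 at 14 °C, so the arrays at 11 °C scattered more. Slide 1 held replicate 1 of all 4 temperatures and slide 2 held replicates 2 and 3 of 11 and 14 °C, so both temperatures shared both slides. Of 13 hemocyte markers, 10 were well above background on all 6 arrays, among them srp, ush, pnr, Pxn and crq, whereas Hml, NimC1 and eater were not. Their summed signal was 28820 to 36611 units at 11 °C and 25820 to 29998 units at 14 °C. None of 5 fat body markers and 1 of 7 muscle and myoblast markers (wupA) was well above background on all 6 arrays, while 5 of 6 neuron, 3 of 5 germline and 5 of 5 epithelial markers were. The part of other cell types in the results was not tested. In such bulk samples, fewer cells of a type and less RNA per cell cannot be told apart.

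The difference between 11 and 14 °C was small for most transcripts, and whether more features fell than rose depended on the scaling. A feature is a gene with its probes averaged, or a probe group whose identifier matched no gene symbol. Of 15098 features tested, 95.1% differed by less than 2-fold between the group means, and the median change was -0.02 on the log2 scale (11 minus 14 °C). At a fold of at least 2 and an adjusted p under 0.01 (limma, Benjamini-Hochberg over all features), 143 features (0.947%) were higher and 184 (1.22%) lower at 11 °C. Of these, 85 of the higher and 137 of the lower features carried a gene symbol. The median fold was 2.54 among the higher and 2.32 among the lower calls. All 143 and all 184 had no overlap between the 3 arrays at 11 °C and the 3 at 14 °C, a pattern that 15.7% of all features showed with 11 °C above and 17.8% with 11 °C below. At an adjusted p under 0.05 with no minimum fold, 675 features (4.47%) were higher and 1008 (6.68%) lower. These counts moved with single arrays. Without replicate 1 at 25 °C they were 1005 higher and 1281 lower. Without 1 of the other warm arrays they were 512 to 634 and 804 to 947. Among the cold arrays they were lowest without replicate 2 at 14 °C, at 254 higher and 475 lower. Without replicate 3 at 11 °C they were 619 and 1543. They were 397 and 668 without replicate 1 at 11 °C, 596 and 658 without replicate 2 at 11 °C, 396 and 511 without replicate 1 at 14 °C and 337 and 593 without replicate 3 at 14 °C. With arrays scaled on the 75th percentile instead of the median, 1445 features were higher and 1350 lower at an adjusted p under 0.05 (limma). The calls were then 173 higher and 172 lower.

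**Figure D1:**
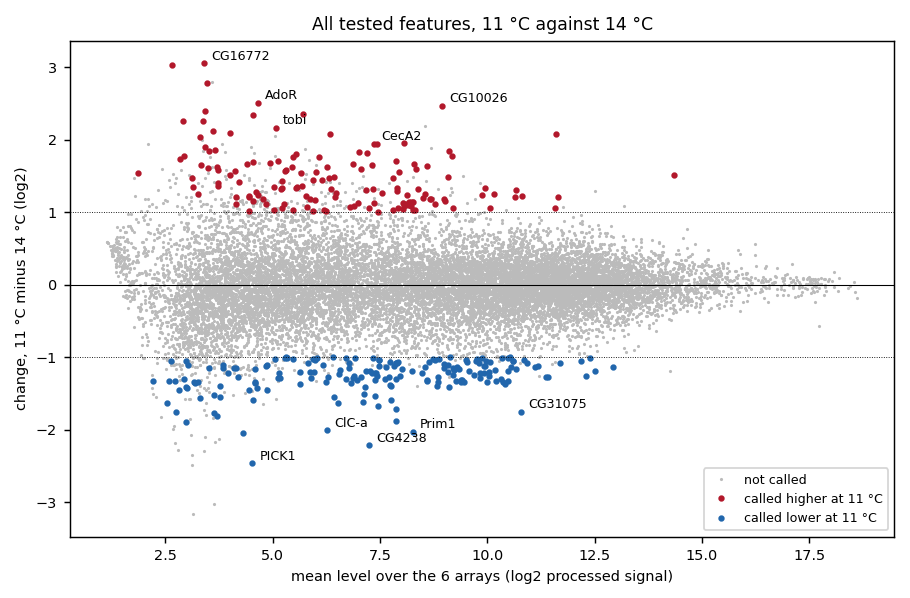
Change between 11 and 14 °C (log2, vertical axis) against the mean level over the 6 arrays (log2 processed signal, horizontal axis) for 15098 features, with 143 calls higher at 11 °C in red and 184 calls lower in blue. Dotted lines mark a 2-fold change; most features lie between them, and 10 called genes are named.

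The calls moved the same way on both slides but rested on the spread shared with the warm arrays. On slide 1, where 1 array stands for each temperature and no test is possible, 143 of 143 higher and 184 of 184 lower calls went in the called direction, 134 and 174 of them by at least 2-fold, and on slide 2 the counts at 2-fold were 132 and 133. These arrays also made the calls. A test of whether the change differed between the slides called 0 of 15064 features at an adjusted p under 0.05 (limma, 656 at an unadjusted p under 0.05, 4 residual degrees of freedom). Fitted on the 6 arrays alone, 1 feature kept both thresholds, CG31528, while 320 of the 327 calls had an adjusted p under 0.05 (range over the calls 0.0059 to 0.0589). Of all features 3.09% passed that level as higher and 3.72% as lower. The calls were picked with these same 6 arrays, so counts of the 327 in fits on them are not separate support. CG31528, chosen here for keeping both thresholds and after its values were seen, stood at 5.82, 5.63 and 5.66 at 11 °C and 3.27, 3.41 and 3.41 at 14 °C. It was well above background on 3 arrays at 11 °C, 1 at 14 °C and 0 at 25 and at 30 °C. It thus passed the filter only through the arrays at 11 °C, where it was high, and its p-value is not separate support. With the replicate number as a block, 0 features passed on the 6 arrays (limma, 4380 at an unadjusted p under 0.05, and 311 of the 327 calls at an adjusted p under 0.05) and 166 higher and 186 lower on all 12. Leaving out 1 array at a time gave between 98 and 447 calls. The fewest, 42 higher and 56 lower, came without replicate 2 at 14 °C and the most, 150 and 297, without replicate 3 at 11 °C. Without replicate 1 or 2 at 11 °C there were 175 and 195 calls, and without replicate 1 or 3 at 14 °C 137 and 146. In all 12 of these fits 86 features were called, 39 higher and 47 lower. Normexp background correction is an alternative way to subtract the local background, run here with an offset of 50 units added to each spot. After it, 0 features were called with the median or the 75th percentile scaling (limma, 122 and 1440 at an unadjusted p under 0.05).

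Among the named genes that fell, the 12 largest changes were ranked among genes well above background on at least 2 of 3 arrays at each temperature. CG4238 stood at 6.12, 6.18 and 6.12 at 11 °C and 8.41, 8.51 and 8.14 at 14 °C on the log2 scale (replicates 1 to 3). Both groups were tight and far apart, and the fall was 2.21 ± 0.14 (SE, 4.64-fold, adjusted p = 1.86e-04), kept whichever of the 12 arrays was left out. Esyt2, an extended synaptotagmin that moves lipids at contacts between the endoplasmic reticulum and the plasma membrane, stood at 3.77, 3.23 and 2.89 at 11 °C and 5.43, 5.52 and 5.06 at 14 °C, a fall of 2.04 ± 0.23 (SE). Of its 3 probes 1 was well above background on all 6 arrays and gave -1.77, while the other 2 were not well above background at 11 °C, so the size of the mean fall is uncertain. ClC-a, a chloride channel, stood at 4.99, 5.21 and 5.58 at 11 °C and 7.56, 6.98 and 7.25 at 14 °C, a fall of 2.01 ± 0.20 (SE). For both genes no array at 11 °C reached the lowest at 14 °C. Rpt3R, a paralog of a proteasome ATPase, fell by 1.71 ± 0.21 and HDAC11, a histone deacetylase, by 1.62 ± 0.17 (SE, adjusted p = 0.00112 and 7.37e-04). The warmer arrays showed that Esyt2, ClC-a, Rpt3R and HDAC11 had lower means at 30 °C as well, namely 3.25 ± 0.17, 3.98 ± 0.12, 6.78 ± 0.18 and 4.76 ± 0.18 (SD, n = 3 each). For Esyt2, ClC-a and HDAC11 the mean at 14 °C was the highest of the 4 temperatures.

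The aldehyde dehydrogenase gene CG31075 and the genes topi, CG34315, cuff, CG6661 and CG14628 complete the 12 falls ranked by size, and all of these calls held with each array left out. CG31075 stood at 9.71, 9.62 and 10.41 at 11 °C and 11.81, 11.48 and 11.69 at 14 °C, and its mean reached 13.30 ± 0.12 (SD, n = 3) at 25 °C and 14.06 ± 0.13 (SD, n = 3) at 30 °C, so the fall of 1.75 ± 0.20 (SE, 3.36-fold, adjusted p = 8.41e-04) was the cold end of a slope across all 4 temperatures. topi, which in the fly testis encodes a zinc finger protein for spermatocyte transcription, stood at 6.32, 7.07 and 7.41 at 11 °C and 8.65, 8.99 and 8.79 at 14 °C. cuff, which encodes a protein of piRNA cluster transcription in the ovary, stood at 5.34, 5.93 and 5.83 at 11 °C and 7.34, 7.51 and 7.15 at 14 °C. Neither showed overlap, with falls of 1.88 ± 0.23 and 1.63 ± 0.17 (SE, adjusted p = 0.00115 and 7.51e-04). CG34315, CG6661 and CG14628 fell by 1.67, 1.59 and 1.59 on the log2 scale (adjusted p = 7.45e-04, 7.51e-04 and 0.00140). CG6661 was well above background on 2 of 3 arrays at 11 °C.

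**Figure D2:**
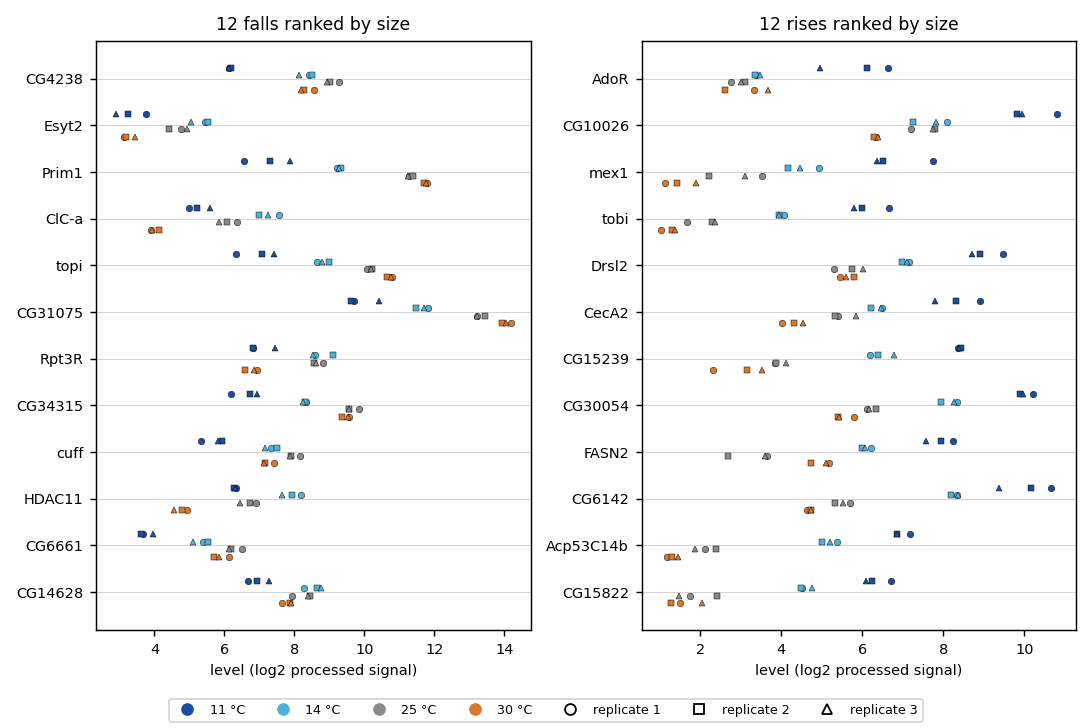
Level on each of the 12 arrays (log2 processed signal, horizontal axis) for the 12 genes with the largest fall (left) and the 12 with the largest rise (right) by the naming rule, coloured by temperature with a symbol for each replicate. In all 24 genes the 3 dark blue points (11 °C) lie apart from the 3 light blue ones (14 °C), and for CG31075 the levels run on upward to 25 and 30 °C.

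Genes of DNA replication fell together. The study's S phase list and the lists for the MCM helicase with origin licensing and for the replicative polymerases with nucleotide supply together had 46 tested genes, of which 13 (28.3%) were called lower, 0 were called higher and 32 had an adjusted p under 0.05 on the lower side, against 1.22% and 6.68% of all features, and 0 of the 46 were higher at an unadjusted p under 0.05 (limma). Their median change was -0.75, against -0.02 for all features. The lists overlap, since 30 genes stand both in the S phase list (83.3% of its 36) and in the other lists (75% of their 40). Scaling on the 75th percentile left the S phase median at -0.79 and the number of S phase calls at 12.

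All 4 subunits of DNA polymerase alpha-primase were called. Prim1, the catalytic primase subunit, stood at 6.57, 7.29 and 7.86 at 11 °C and 9.22, 9.33 and 9.27 at 14 °C. The 3 arrays at 14 °C agreed within 0.11, whereas those at 11 °C were spread, with replicate 3 nearest to 14 °C. The fall was 2.03 ± 0.25 (SE, 4.09-fold, adjusted p = 0.00122), and the call was kept whichever of the 12 arrays was left out. Prim2, the large primase subunit, fell by 1.17 ± 0.13 (SE, 2.26-fold, adjusted p = 8.41e-04), and its call was kept whichever of the 12 arrays was left out. The catalytic polymerase subunit PolA1 stood at 9.12, 9.31 and 9.74 at 11 °C and 10.61, 10.48 and 10.45 at 14 °C, and PolA2, the accessory subunit, at 9.03, 9.55 and 10.06 at 11 °C and 10.88, 10.91 and 10.84 at 14 °C. Both pairs of groups stood apart, with falls of 1.12 ± 0.16 and 1.33 ± 0.21 (SE, adjusted p = 0.00224 and 0.00385), and the call of PolA1 was lost without replicate 1 at 11 °C or any single array at 14 °C, whereas that of PolA2 was lost without replicate 2 at 11 °C or any single array at 14 °C.

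In the MCM helicase 4 of 6 subunits were called and all 6 passed an adjusted p of 0.05, against 1.22% and 6.68% of all features on the lower side. Mcm7 stood at 6.07, 6.31 and 6.77 at 11 °C and 8.01, 7.83 and 7.82 at 14 °C and fell by 1.50 ± 0.19 (SE, 2.84-fold, adjusted p = 0.00152), a call that was kept whichever of the 12 arrays was left out. Mcm5, Mcm3 and Mcm2 fell by 1.26, 1.22 and 1.12 on the log2 scale, and the call of Mcm5 was lost without any single array at 14 °C, that of Mcm3 was kept whichever of the 12 arrays was left out and that of Mcm2 was lost without replicate 1 at 11 °C or replicate 1 or 2 at 14 °C. Mcm6 and dpa, which encodes the Mcm4 subunit, fell by 0.85 and 0.83, less than 2-fold (adjusted p = 0.00149 and 0.00545). Of 5 ORC subunits tested, which mark origins, Orc6 (-1.35 ± 0.21, SE) and Orc2 (-1.11 ± 0.20) were called and Orc1, Orc4 and Orc5 fell by less than 2-fold. The call of Orc6 was lost without any single array at 14 °C and that of Orc2 was lost without replicate 1 or 2 at 11 °C, any single array at 14 °C, replicate 2 or 3 at 25 °C or replicate 2 or 3 at 30 °C. The loading factors Cdc6 and dup (Cdt1) changed by -0.91 and -0.82 (adjusted p = 0.00957 and 0.00555).

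GINS was uneven. Its subunit Sld5 stood at 9.44, 9.78 and 10.22 at 11 °C and 11.15, 11.20 and 11.08 at 14 °C, a fall of 1.33 ± 0.17 (SE, 2.51-fold, adjusted p = 0.00130) that was kept whichever of the 12 arrays was left out. Psf1 and Psf2 fell by 0.65 and 0.69, while Psf3 differed by -0.06 ± 0.18 (SE, adjusted p = 0.882) with overlapping groups. DNAlig1, the ligase that joins Okazaki fragments, fell by 1.14 ± 0.17 (SE, adjusted p = 0.00311), and its call was lost without replicate 1 or 2 at 11 °C or any single array at 14 °C. The sliding clamp PCNA fell by 0.84 and the small subunit of ribonucleotide reductase RnrS by 0.90 (adjusted p = 0.00985 and 0.00369), each less than 2-fold. The single-strand binding protein subunit RPA1 stood at 12.56, 12.44 and 12.65 at 11 °C and 12.69, 12.45 and 12.49 at 14 °C, with overlapping groups and a change of 0.01 ± 0.15 (SE). No replication factor C or replication protein A subunit was called (0 of 4 and 0 of 3), and 2 and 0 of them had an adjusted p under 0.05 (limma). Of all features 1.22% were called lower and 6.68% were lower at an adjusted p under 0.05.

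**Figure D3:**
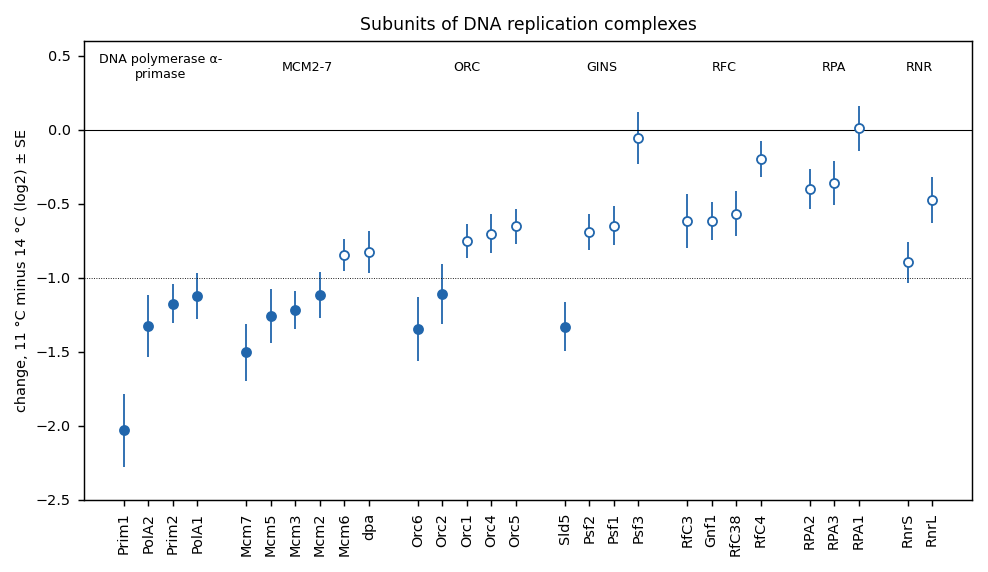
Change between 11 and 14 °C (log2, vertical axis) with its SE from the limma fit for 28 subunits of 7 complexes of DNA replication, filled where called and open where not. All 4 subunits of DNA polymerase alpha-primase and 4 of 6 MCM subunits lie below the dotted 2-fold line, while Psf3 and RPA1 lie at the zero line.

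The S phase fall was not of one size on the 3 arrays at 11 °C. The mean level over the 36 S phase genes was 9.58, 9.72 and 10.04 at 11 °C and 10.64, 10.58 and 10.53 at 14 °C (replicates 1 to 3), so replicate 3 at 11 °C lay nearest to 14 °C. It was also the nearest of the 3 for 130 of the 184 lower calls. At 25 and 30 °C the list means were 11.73 to 11.97, above both cold groups. The median change of the list was -0.96 on slide 1 and -0.72 on slide 2, against -0.11 and 0.03 over all features. With all arrays 12 of the 36 genes were called. Without replicates 1, 2 and 3 at 11 °C in turn the count was 8, 9 and 15, and without replicates 1, 2 and 3 at 14 °C it was 5, 5 and 6.

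Mitosis genes fell too, by less. In the study's M phase list and the list of mitotic kinases, kinetochore, spindle and centrosome genes, 59 genes were tested, with 4 (6.78%) called lower, 0 called higher, 22 at an adjusted p under 0.05 on the lower side, against 1.22% and 6.68% of all features, and a median of -0.52. The 4 were asp, a spindle pole protein, thr, a partner of separase, cid, the centromeric histone, and rod, a kinetochore checkpoint protein. Levels of thr were 8.59, 8.61 and 9.04 at 11 °C and 9.98, 9.98 and 9.76 at 14 °C, a fall of 1.16 ± 0.14 (SE, adjusted p = 0.00134) whose call was lost without replicate 2 at 14 °C. Levels of cid were 8.37, 8.36 and 8.87 at 11 °C and 9.69, 9.75 and 9.48 at 14 °C, a fall of 1.10 ± 0.16 whose call was lost without replicate 1 or 2 at 11 °C or replicate 1 or 2 at 14 °C. Those of asp and rod also rested on single arrays, since that of asp was lost without replicate 2 at 11 °C or replicate 1 or 2 at 14 °C and that of rod was lost without replicate 1 or 2 at 11 °C or any single array at 14 °C. The M phase list had 3 calls on all arrays, 11 without replicate 3 at 11 °C, and 1, 1, 1, 0 and 2 without replicates 1 and 2 at 11 °C and replicates 1, 2 and 3 at 14 °C. Of the genes of mitotic entry, Cdk1 stood at a change of -0.35 ± 0.14, CycB at -0.02 ± 0.13 and stg at -0.14 ± 0.20 (SE, adjusted p = 0.139, 0.952 and 0.721). Others of these kinases, cyclins and phosphatases stood at -0.62 for aurA, -0.61 for twe, -0.43 for CycA and -0.34 for polo (adjusted p = 0.00893, 0.0688, 0.0591 and 0.166). Among 24 cyclins, Cdks and switches, which share Cdk1, CycB and others with these lists, 0 were called (limma) and the median was -0.16. At an unadjusted p under 0.05, 7 were lower, and 4 of these at an adjusted p under 0.05, against 6.68% of all features. They included Cdk2 (-0.61) and CycE (-0.80), which drive entry into S phase.

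Among the named genes that rose, the 12 largest by the same ranking belonged to no single list. AdoR, the only adenosine receptor known in flies, stood at 6.64, 6.12 and 4.97 at 11 °C and 3.38, 3.36 and 3.47 at 14 °C. The arrays at 14 °C lay close together and below all those at 11 °C, of which replicate 3 was the lowest. At 14 °C AdoR was well above background but near the lowest signals of such probes, 3.17, 2.99 and 3.35 (replicates 1 to 3). The closeness of these arrays and the size of the rise are therefore uncertain. The rise of AdoR was 2.51 ± 0.37 (SE, 5.68-fold, adjusted p = 0.00295), the largest in that ranking, and its call was lost without replicate 2 at 11 °C or any single array at 14 °C. CG10026, which encodes a protein with a lipid-binding CRAL-TRIO domain, stood at 10.79, 9.82 and 9.94 at 11 °C and 8.10, 7.25 and 7.81 at 14 °C, a rise of 2.47 ± 0.28 (SE) that was kept whichever of the 12 arrays was left out. tobi, an alpha-glucosidase known as a target of brain insulin, stood at 6.66, 6.0 and 5.81 at 11 °C and 4.07, 3.94 and 3.96 at 14 °C. Groups did not overlap, the rise was 2.17 ± 0.23 (SE, adjusted p = 7.51e-04), and on no array at 25 or 30 °C was tobi well above background. mex1, named for its expression in the midgut, stood at 7.75, 6.51 and 6.37 at 11 °C and 4.92, 4.18 and 4.46 at 14 °C, with replicate 1 at 11 °C above the rest, and its call was lost without replicate 1 or 2 at 11 °C, any single array at 14 °C or replicate 2 at 30 °C.

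FASN2, a fatty acid synthase, stood at 8.24, 7.94 and 7.56 at 11 °C and 6.21, 5.99 and 6.06 at 14 °C. The rise was 1.82 ± 0.26 (SE, 3.54-fold, adjusted p = 0.00234), and the call was lost without replicate 1 at 11 °C or replicate 2 or 3 at 14 °C. It was the only call among 16 genes of the SREBP pathway, fatty acid synthesis and desaturation, whose median change was -0.00. Of all features 0.947% were called higher. Drsl2, a relative of the antifungal peptide Drosomycin, stood at 9.47, 8.91 and 8.70 at 11 °C and 7.14, 6.97 and 7.10 at 14 °C and rose by 1.95 ± 0.22 (SE). CG30054 and Acp53C14b, the latter named as a male accessory gland protein, rose by 1.85 and 1.76 with little scatter (SE 0.16 and 0.16). These 3 calls held with each array left out. CG15239, CG6142 and CG15822 rose by 1.94, 1.77 and 1.76. The call of CG15239 was lost without replicate 1 or 2 at 14 °C, that of CG6142 was lost without replicate 2 at 11 °C or any single array at 14 °C and that of CG15822 was lost without replicate 1 or 2 at 11 °C or any single array at 14 °C.

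Antimicrobial peptide genes lay higher at 11 °C. Of 19 tested genes of the list, which also holds secreted peptidoglycan recognition proteins, 1 was called and 6 had an adjusted p under 0.05, all of them higher, against 0.947% and 4.47% of all features, with a median change of 0.90. The 6 were CecA2, CecA1, AttA, AttB, Drs and PGRP-SA. CecA2, a cecropin, stood at 8.90, 8.30 and 7.79 at 11 °C and 6.49, 6.22 and 6.46 at 14 °C, a rise of 1.95 ± 0.26 (SE, 3.85-fold, adjusted p = 0.00179) whose call was lost without replicate 2 at 14 °C. CecA1 stood at 11.13, 10.45 and 10.01 at 11 °C and 9.47, 8.81 and 9.10 at 14 °C, and the change of 1.40 ± 0.29 (SE) had an adjusted p of 0.0122, 0.00884 without replicate 1 at 25 °C. Drs, which encodes Drosomycin, stood at 8.67, 9.19 and 8.99 at 11 °C and 7.86, 8.03 and 8.14 at 14 °C, a rise of 0.94 ± 0.14 (SE, adjusted p = 0.00311) that stayed just under 2-fold. The attacin genes AttA and AttB rose by 1.07 and 1.87 (adjusted p = 0.0447 and 0.0402).

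Not all immune effectors followed. CecC, BomBc1 and PGRP-SD had overlapping groups, with changes of 0.31, 0.26 and -0.19, and Mtk scattered over 5.83, 4.72 and 3.54 at 11 °C. The list's mean level was 7.08, 6.57 and 6.36 at 11 °C, 5.90, 5.72 and 5.68 at 14 °C and 4.72 to 5.31 at the warmer temperatures. The number of calls in the list was 1 on all arrays, 0 without replicate 2 at 14 °C, 2 without replicate 1 or 3 at 11 °C, replicate 1 at 14 °C or replicate 1 at 25 °C, and 4 with slide as a block. The median of the list fell to 0.10 with normexp background correction and 75th percentile scaling. Of 17 Toll receptors, Imd pathway members and NF-kB factors, 0 were called and 0 had an adjusted p under 0.05 (limma, 3 higher and 1 lower at an unadjusted p under 0.05), with a median of 0.20. Of all features 2.17% were called, and at an adjusted p under 0.05 4.47% were higher and 6.68% lower. Rel, the NF-kB factor of the Imd pathway, changed by 0.42 ± 0.14 and imd by 0.47 ± 0.17 (SE, adjusted p = 0.0732 and 0.106).

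Heat shock genes lay slightly higher at 11 °C, and few passed a test. The study used the Hsp levels of these same arrays to place 11 °C beyond the tolerated range. A rise here is therefore not separate support for that placement. An array outside the comparison bears on that test, because replicate 1 at 25 °C stood apart in these genes. Hsp70Aa, a heat-inducible Hsp70, stood at 12.91, 9.81 and 9.87 at 25 °C (replicates 1 to 3), Hsp23 at 13.44, 10.32 and 10.33 and Hsp26 at 13.21, 10.39 and 10.50. The median SE of the change over the small Hsp genes was 0.34 with all 12 arrays and 0.22 without that array. Adjusted p-values are therefore also given without it.

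Of 10 small Hsp genes tested, 10 had a mean above that at 14 °C, with a median change of 0.45, and 1 was called, against 0.947% of all features. This was Hsp67Bc, a small Hsp that works with the co-chaperone stv in autophagy, at 6.74, 6.19 and 6.04 at 11 °C and 5.25, 5.12 and 5.40 at 14 °C. The groups did not overlap and the rise was 1.07 ± 0.21 (SE, 2.10-fold, adjusted p = 0.00874). Its call was kept only when replicate 3 at 11 °C or replicate 1 at 25 °C was the array left out, and lost without each of the other 10. Both warmer temperatures had higher means still, 6.66 ± 0.32 and 7.45 ± 0.14 (SD over 3 arrays, 25 °C first). Hsp26 stood at 11.54, 10.95 and 10.73 at 11 °C and 10.47, 10.23 and 10.18 at 14 °C. It did not overlap, and its change of 0.78 had an adjusted p of 0.462 with all arrays and 0.0401 without replicate 1 at 25 °C, 0.0906 on the 6 arrays alone and 0.289 with the replicate number as a block on 12 arrays. Hsp22, Hsp23 and Hsp27 had overlapping groups, with changes of 0.03, 0.68 and 0.37 (adjusted p = 0.981, 0.635 and 0.530). The genes l(2)efl, CG7409 and CG4461 were not well above background on any of the 6 arrays.

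Of 13 genes for Hsp70, Hsp83 and their cytosolic partners, 0 were called (limma, 2 higher at an unadjusted p under 0.05). Of all features 0.947% were called higher and 4.47% were higher at an adjusted p under 0.05. In this list 1 gene passed the latter level, and the median change was 0.23. The 1 was DnaJ-1, an Hsp40 co-chaperone, at 13.21, 13.05 and 13.19 at 11 °C and 12.77, 12.44 and 12.57 at 14 °C, a rise of 0.56 ± 0.15 (SE, 1.47-fold, adjusted p = 0.0429). Its adjusted p was 0.0568 on the 6 arrays alone and 0.0165 with the replicate number as a block on 12 arrays. Hsp70Aa stood at 10.12, 8.96 and 8.90 at 11 °C and 8.73, 7.92 and 7.73 at 14 °C, a difference of 1.20 ± 0.74 (SE) with an adjusted p of 0.347, 0.0835 without replicate 1 at 25 °C and 0.127 on the 6 arrays alone. The 4 Hsp70 genes measured lay higher without overlap, as 15.7% of all features did, and they are near-identical copies that probes may not tell apart, so they are not 4 separate results. Without replicate 1 at 25 °C stv, a co-chaperone, passed 0.05 as well (adjusted p = 0.0369, change 0.68), with 0.0894 on the 6 arrays alone and 0.0366 with the replicate number as a block on 12 arrays. Hsf, Hsp68, Hsp83 and Hsc70-4, the constitutive Hsp70, changed by 0.19, -0.02, 0.23 and -0.38 (adjusted p = 0.515, 0.973, 0.464 and 0.303). Subunits of the chaperonin CCT stayed within -0.07 to 0.13 of no change, with 0 of 8 called and 0 at an unadjusted p under 0.05 (limma). Among 17 genes for chaperones and the unfolded protein response of the endoplasmic reticulum, 0 were called and 1 passed even an unadjusted p of 0.05 (limma), Edem1, which helps to clear misfolded glycoproteins and was lower (-0.66, adjusted p = 0.00545). Beside both lists, 2.17% of all features were called in either direction and 3953 of 15098 passed that unadjusted level.

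**Figure D4:**
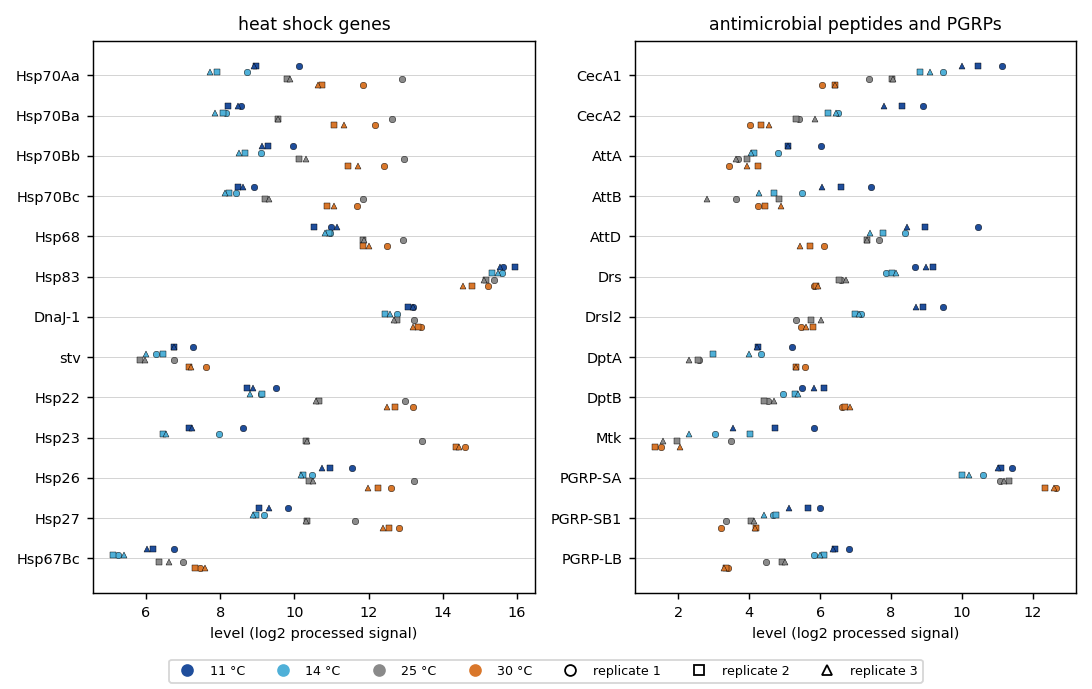
Level on each of the 12 arrays (log2 processed signal, horizontal axis) for 13 heat shock genes (left) and 13 genes for antimicrobial peptides and peptidoglycan recognition proteins (right), coloured by temperature with a symbol for each replicate. For Hsp70Aa, Hsp23 and Hsp26 replicate 1 at 25 °C lies far to the right of its group, while CecA2, Drs and Drsl2 are highest at 11 °C.

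Genes of amino acid breakdown and detoxification moved in both directions. Tat, tyrosine aminotransferase and the first step of tyrosine breakdown, stood at 8.96, 9.33 and 9.57 at 11 °C and 8.06, 8.23 and 8.01 at 14 °C, a rise of 1.19 ± 0.18 (SE, 2.28-fold, adjusted p = 0.00313) whose call was lost without replicate 2 at 11 °C or any single array at 14 °C. GstZ1, a zeta-class glutathione S-transferase and by homology an isomerase of the same pathway, stood at 9.0, 9.26 and 9.30 at 11 °C and 10.56, 10.44 and 10.43 at 14 °C, a fall of 1.29 ± 0.11 (SE, 2.45-fold, adjusted p = 4.54e-04) that was kept whichever of the 12 arrays was left out. Tat lay highest at 11 °C and GstZ1 lowest, and 25 °C gave means of 5.19 ± 0.23 for Tat and 11.45 ± 0.06 for GstZ1 (SD, n = 3). Among 31 glutathione S-transferases 1 was called higher and 1 lower, against 0.947% and 1.22% of all features, with a median of -0.03. The higher was GstD7, at 9.77, 8.87 and 8.76 at 11 °C and 7.83, 7.16 and 7.41 at 14 °C, a rise of 1.67 ± 0.28 (SE) whose call was lost without replicate 1 or 2 at 11 °C or any single array at 14 °C. Among 49 cytochrome P450 genes 0 were called higher and 2 lower, against the same shares of all features. The 2 were Cyp6a22 (-1.30 ± 0.23) and Cyp6t1 (-1.23 ± 0.14, SE). The call of Cyp6t1 was kept whichever of the 12 arrays was left out, and that of Cyp6a22 was lost without replicate 1 or 2 at 11 °C, replicate 1 or 2 at 14 °C, replicate 2 at 25 °C or replicate 2 or 3 at 30 °C.

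The alpha-esterases, carboxylesterases encoded side by side, split. alpha-Est3 stood at 6.85, 7.18 and 7.13 at 11 °C and 8.47, 8.45 and 8.39 at 14 °C, a fall of 1.39 ± 0.12 (SE, 2.62-fold, adjusted p = 4.54e-04) that was kept whichever of the 12 arrays was left out. Its neighbour alpha-Est4 stood at 5.53, 5.18 and 5.91 at 11 °C and 6.59, 6.49 and 6.55 at 14 °C, a fall of 1.01 (adjusted p = 0.00924) at the edge of both thresholds, kept only when replicate 3 at 11 °C or replicate 1 at 25 °C was the array left out and lost without each of the other 10. alpha-Est8 lay on the other side, at 8.03, 8.50 and 9.19 at 11 °C and 6.98, 7.48 and 7.25 at 14 °C and not well above background at 25 or 30 °C. Its rise of 1.34 ± 0.26 (SE, adjusted p = 0.00981) was called with all arrays and, of the 12 fits with 1 array left out, only in that without replicate 1 at 11 °C. Under 75th percentile scaling neither alpha-Est4 nor alpha-Est8 was called. Over the 7 tested members 1 was called higher and 2 lower, against 0.947% and 1.22% of all features, with a median of -0.57. alpha-Est3 and alpha-Est4 were among 5 pairs of neighbouring protein-coding genes in the RefSeq annotation that were both called, and both genes of each pair moved the same way. The others were Buffy with CG13196, which overlap, CG34454 with CG34453, CG7402 with Tsp74F, and CG18622 with MESK4.

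Single members of several other lists were called, where 0.947% of all features were called higher and 1.22% lower. In the adenosine list, Adgf-A and Adgf-D, adenosine deaminases of the growth factor type, lay higher beside AdoR, by 0.61 ± 0.15 and 1.41 ± 0.40 (SE, adjusted p = 0.0258 and 0.0455). The nucleoside transporter Ent2 stood at -0.51 (adjusted p = 0.220). smp-30, a relative of the calcium-binding protein regucalcin, stood at 11.48, 11.32 and 11.43 at 11 °C and 10.12, 10.11 and 10.32 at 14 °C, a rise of 1.23 ± 0.11 (SE, 2.34-fold, adjusted p = 4.54e-04) that was kept whichever of the 12 arrays was left out. It was the 1 call among 8 known cold-response genes tested. CG12896, a peroxiredoxin, stood at 12.28, 12.02 and 12.42 at 11 °C and 11.18, 11.04 and 10.86 at 14 °C, a rise of 1.21 ± 0.16 (SE) whose call was lost without replicate 2 or 3 at 14 °C, and 1 of 21 antioxidant genes was called. Its mean at 14 °C was the lowest of the 4 temperatures, with 13.14 ± 0.20 at 30 °C (SD, n = 3).

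Buffy, a Bcl-2 family protein, stood at 7.75, 7.08 and 6.66 at 11 °C and 5.79, 5.45 and 5.80 at 14 °C, a rise of 1.48 ± 0.27 (SE, adjusted p = 0.00637) whose call was lost without replicate 1 or 2 at 11 °C, any single array at 14 °C, replicate 2 at 25 °C or any single array at 30 °C. No other of 16 apoptosis genes was called. Lsd-1, the lipid droplet protein perilipin 1, stood at 9.72, 10.15 and 10.05 at 11 °C and 10.96, 11.14 and 10.82 at 14 °C and fell by 1.00 ± 0.14 (SE, adjusted p = 0.00195). Its call was lost without replicate 1 at 11 °C or replicate 1 or 2 at 14 °C, and also under 75th percentile scaling. CG11899, a phosphoserine aminotransferase of serine synthesis, fell by 1.08 ± 0.20 (SE, adjusted p = 0.00826). Its call was lost without replicate 1 or 2 at 11 °C, any single array at 14 °C, replicate 2 or 3 at 25 °C or replicate 2 or 3 at 30 °C, and also under 75th percentile scaling.

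Hemocyte surface genes gave a mixed picture. He, which encodes the surface protein Hemese, stood at 5.40, 5.44 and 4.98 at 11 °C and 6.49, 6.39 and 6.55 at 14 °C, a fall of 1.20 ± 0.20 (SE, adjusted p = 0.00467) whose call was lost without replicate 1 or 2 at 11 °C or any single array at 14 °C. The phagocytic receptor gene eater stood at 4.59, 3.0 and 4.25 at 11 °C and 6.02, 5.22 and 5.52 at 14 °C (-1.64 ± 0.35, SE, adjusted p = 0.0140), and the scavenger receptor gene Sr-CI at 8.58, 8.17 and 8.41 at 11 °C and 9.63, 9.07 and 9.22 at 14 °C (-0.92 ± 0.17, adjusted p = 0.00772). Neither met both thresholds for a call. At 11 °C eater was well above background on 2 of 3 arrays. Its 3.0 on replicate 2 lay below 4.3, the lowest signal there of a probe well above background. The size of its fall is therefore uncertain. Of 14 phagocytic and scavenger receptor genes tested, 0 were called, 5 lay above 0 and 9 below, with a median of -0.24. At an adjusted p under 0.05, 1 was higher and 2 were lower (limma), against 4.47% and 6.68% of all features. The 1 was Tep1, which rose by 0.91 ± 0.14 (SE, adjusted p = 0.00288). Also higher without overlap were pes, Mcr and Tep4, by 0.48, 0.35 and 0.30 (adjusted p = 0.0743, 0.182 and 0.311). The transcription factor genes srp, ush and pnr of the hemocyte lineage changed by -0.05, 0.39 and 0.34, with adjusted p from 0.198 to 0.897. Over the 13 hemocyte markers the median was -0.05 with 1 called lower, against 1.22% of all features. shg, the gene of DE-cadherin, rose by 1.11 ± 0.21 (SE, adjusted p = 0.00744). Its call was lost without any single array at 11 °C, any single array at 14 °C, replicate 2 or 3 at 25 °C or replicate 2 at 30 °C. Of the other epithelial markers, Tsp2A rose by 0.87 (adjusted p = 0.0437), while crb, sdt and baz changed by -0.03, 0.04 and -0.34.

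Most gene lists had no call. Of 59 lists, 37 held 0 called members. Their 713 tested genes had 40 higher and 109 lower at an unadjusted p under 0.05 (limma), a level that 3953 of all 15098 features passed in either direction. At an adjusted p under 0.05 there were 7 and 39, against 4.47% and 6.68% of all features, and the median was -0.03. These lists were picked for holding no call, which in part sets their counts and median. Among them were glycolysis, the TCA cycle, oxidative phosphorylation, cytoplasmic and mitochondrial ribosomal proteins, the proteasome, autophagy, insulin and TOR signalling, beta oxidation, membrane phospholipid synthesis, V-type ATPase, aminoacyl-tRNA synthetases, the JNK and JAK/STAT pathways, nuclear receptors, tubulins and actins, and the basement membrane. Of 66 mitochondrial ribosomal protein genes 63 lay below 0, 13 had an adjusted p under 0.05, all of them lower, against 6.68% of all features, and the median was -0.29. mRpL36 had the smallest adjusted p (-0.87 ± 0.14, SE, adjusted p = 0.00407). Of 32 proteasome genes 30 lay below 0 with a median of -0.23, and Rpt4 was the only one at an adjusted p under 0.05 (-0.37, adjusted p = 0.0424). Cytoplasmic ribosomal proteins lay at 0.06, but at -0.22 on slide 1 and 0.17 on slide 2, against -0.11 and 0.03 over all features. CG7888, an amino acid transporter, stood at 10.19, 9.58 and 9.10 at 11 °C and 7.95, 7.78 and 7.48 at 14 °C, a difference of 1.89 ± 0.58 (SE, adjusted p = 0.0620), and it was called without replicate 1 at 25 °C (adjusted p = 0.00266), where it stood at 5.97, 3.09 and 3.70 at 25 °C.

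**Figure D5:**
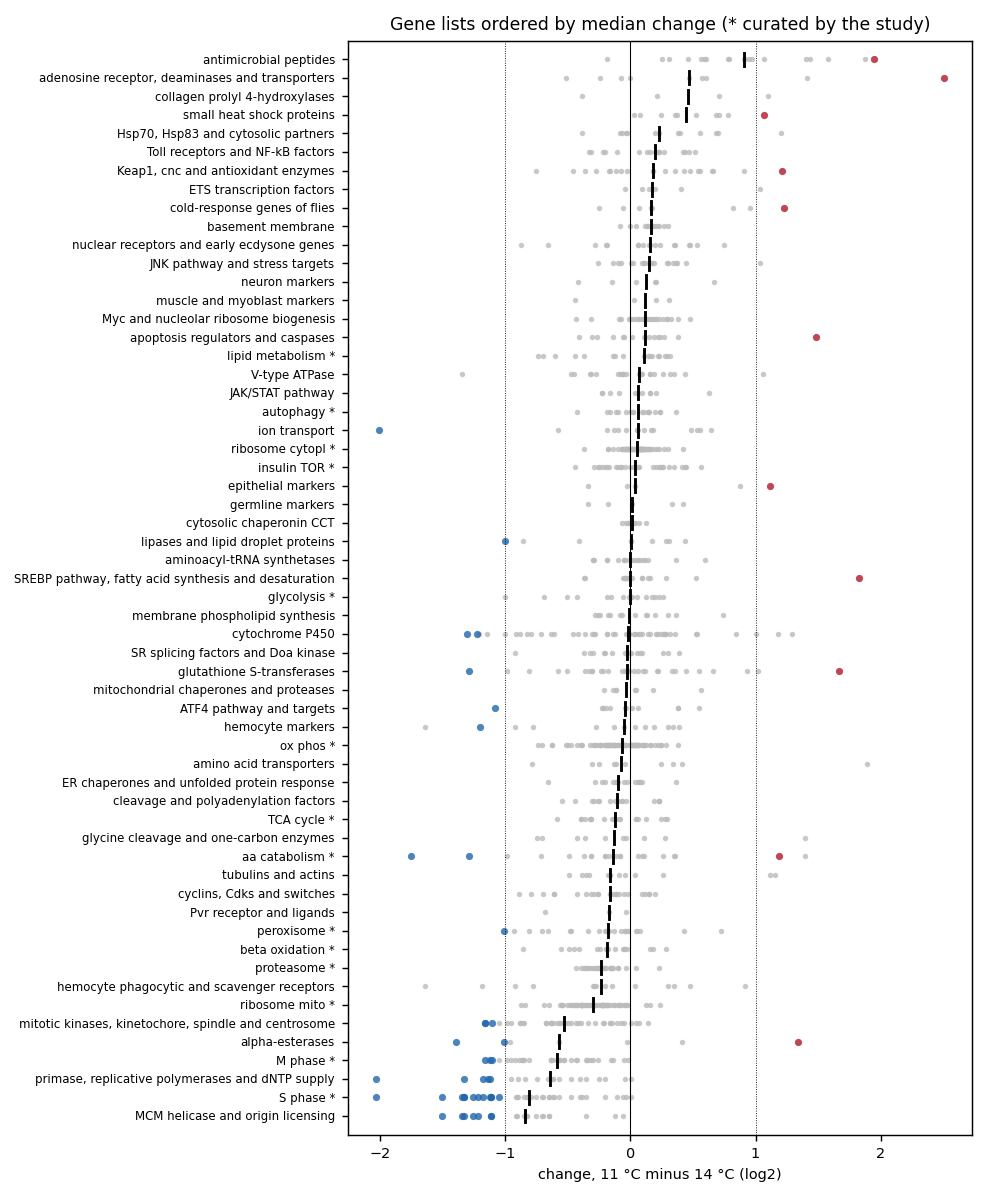
Change between 11 and 14 °C (log2, horizontal axis) of the tested members of each gene list with at least 3 of them, ordered by the median (black bar), with calls in red (higher at 11 °C) and blue (lower). S phase, MCM and primase lists lie at the bottom with medians of -0.81, -0.84 and -0.64, antimicrobial peptides at the top with 0.90, and most lists near 0.

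Some called genes were measurable at 1 of the temperatures but never rose well over background at the other, so that only a bound can be given. Of the called genes with a symbol, 4 were measurable at 11 °C alone and 5 at 14 °C alone. A bound sets the mean of the bright group against, on each dim array, the higher of the probe's own signal and the lowest signal of a probe well above background. CG16772 stood at 5.54, 4.76 and 4.47 at 11 °C and was not well above background at 14, 25 or 30 °C, at least 3.37-fold higher at 11 °C (adjusted p = 0.00105). It passed the filter only through the arrays at 11 °C, where it was high. Its adjusted p and its calls with single arrays left out are therefore not separate support. Tsp74F, a tetraspanin, was at least 2.67-fold, CG8028 at least 2.53-fold and Cht7, a chitinase, at least 2.50-fold higher at 11 °C. In the other direction PICK1, which encodes a PDZ and BAR domain protein, stood at 5.55, 6.0 and 5.73 at 14 °C, at least 4.04-fold lower at 11 °C (adjusted p = 5.05e-04), and remained well above background at 25 and 30 °C. PXo, a phosphate transporter, CG31546 and the gustatory receptor gene Gr47b were at least 1.78-fold, 1.71-fold and 1.18-fold lower at 11 °C, and the bound of the 5th, CG8673, was 1.02-fold. With the replicate number as a block on 12 arrays PXo and Gr47b were no longer called. The calls of CG16772, Tsp74F, CG8028 and PICK1 held with each array left out. The call of Cht7 was lost without replicate 2 at 11 °C or replicate 1 or 2 at 14 °C, and that of CG31546 was lost without replicate 1 or 2 at 14 °C. That of Gr47b was lost without replicate 1 or 2 at 11 °C, any single array at 14 °C, replicate 2 at 25 °C or replicate 2 or 3 at 30 °C, and that of PXo was lost without replicate 1 or 2 at 11 °C, any single array at 14 °C, replicate 2 or 3 at 25 °C or replicate 1 or 2 at 30 °C.

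Levels at 25 °C placed the calls on a temperature axis. Of the 143 features higher at 11 °C, 119 had a lower mean at 25 °C than at 14 °C, and 80 fell steadily from 11 through 14 and 25 to 30 °C. Of the 184 lower at 11 °C, 150 had a higher mean at 25 °C than at 14 °C and 83 rose steadily over the 4 temperatures. The median difference from 25 °C was 1.22 at 14 °C and 2.74 at 11 °C for the higher calls, and -0.78 and -2.06 for the lower ones. These differences share the arrays that made the calls and are a description. The remaining 24 higher and 34 lower calls, such as CG12896 and HDAC11, had their lowest or highest mean at 14 °C among 11, 14 and 25 °C. By chromosome arm, 51 of 2232 tested protein-coding genes on 3R (2.29%) were lower, against 0.845% to 1.74% on 2L, 2R, 3L and X and 0 of 71 on chromosome 4, and these shares were not tested. Of 3215 genes with several probes, 0 had 1 probe called higher and another called lower, and 7 had probes in opposite directions at an adjusted p under 0.05 (limma on single probes), namely Mef2, Svil, Tm1, UQCR-11, mod(mdg4), px and stj, which were chosen by this count after their values were seen.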

How the data were processed

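RNA of S2R+ cells, labelled with Cy3, was hybridised to single-colour Agilent arrays, 1 per culture. The deposited scanner files hold spot intensities that the authors extracted with Agilent Feature Extraction 10.7.3.1, which had already subtracted the background. A deposited table of log2 values, scaled by the authors on the median of the 25 °C arrays, differed from the processed signals by a constant per array and served as an alternative. Control spots and outlier spots were left out, spots averaged per probe, and arrays scaled on their medians to the 25 °C arrays. Of 32162 gene probes, 61.0% matched 13126 genes of the RefSeq table, and probes of a gene were averaged. The filter asked, for some temperature, that 2 of its 3 arrays show 50% or more of a probe's spots well above background, and for values on 10 or more arrays, which left 19760 probes and 15098 features. All 12 arrays were fitted with limma 3.58.1 in R 4.3.3 and shared 1 residual variance per feature. Calls needed a fold of 2 or more with an adjusted p (Benjamini-Hochberg) under 0.01, the thresholds the study used between its low and high temperatures. Its methods name no test for these arrays.

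The labels call the replicates biological. Whether the numbers pair the cultures at 11 and 14 °C is not known. Deviations from the group means correlated at 0.57, 0.16 and 0.24 between the 2 temperatures for replicates 1 to 3. Only arrays of the same number were compared, and these also shared a slide, so the check cannot tell pairing from slide. With 3 arrays a group, an exact permutation test could not go below p = 0.1, so single genes were tested only in the fit across features. The members, gene lists and rules were chosen with earlier results of these data known, and the study curated its S phase, M phase and pathway lists from annotation and reported on them with these samples. Genes named are the 12 largest called rises and falls well above background at both temperatures, up to 4 bounds in each direction, up to 4 called members of each list or, with none, the 1 or 2 with the smallest adjusted p, and the heat shock, S phase and M phase genes; others are said to be chosen after their values were seen. The scripts were tested on simulated data. Scaling, background correction, filters, blocks, single slides and left-out arrays were varied. No genome or promoter sequence was used here, so promoter motifs were not analysed. A called member of 1 gene list is not reported here.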

Additional observations from a re-analysis of the deposited data

How the results depend on the processing

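Counts of calls, 143 higher and 184 lower, stayed within 1.5 times under 75th percentile, detected-probe and quantile scaling, the authors' log2 table, both stricter filters, slide or replicate number as a block on 12 arrays, the trend fit and the brightest probe. The excess of lower calls was not kept in all of these. Counts were 173 and 172 under 75th percentile scaling, 173 and 173 under detected-probe scaling and 205 and 203 with slide as a block. They fell to 80 and 97 with no filter on dim probes and to 35 and 25 when tested against 1.5-fold, and were 675 and 1008 at an adjusted p under 0.05 with no minimum fold. On the 6 cold arrays alone they were 1 and 0, and 0 and 0 there with the replicate block, with slide as a block (chosen after seeing the data) or within slide 2 (limma, 4380, 4491 and 2852 features at an unadjusted p under 0.05). Fewer arrays were fitted there. Normexp background correction gave 0 and 0, also with 75th percentile scaling, chosen after seeing the data (122 and 1440 at an unadjusted p under 0.05). With the latter, the 327 calls had a median SE 2.64 times and a median size 0.53 times that of the reported fit, and the cause was not tested. Normexp added an offset of 50 units, while the median processed signal of the 6 arrays was 40.5 to 60.1 units. Leaving out 1 array gave 42 to 178 higher and 56 to 297 lower calls. None of the 60 named called genes changed direction under any alternative run, and 28 were called in all 12 fits with 1 array left out. With no filter on dim probes the genes that lost their call included Buffy, CG11899, Cht7, Cyp6a22, DNAlig1, Gr47b, GstD7, He, Hsp67Bc, Orc2, Orc6, PXo, PolA2, alpha-Est4, alpha-Est8, mex1, rod and shg and, of the genes chosen after their values were seen, Claspin, Fancd2, NLaz, Rad1, armi and tej. With the brightest probe, alpha-Est8, rod, PolA1, Orc2 and RecQ4 lost it, and PXo and Lsd-1 with quantile scaling. With the replicate block on 12 arrays the counts were 166 and 186, and Hsp67Bc, CecA2 and 11 of 36 S phase genes were called.

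Medians of gene lists moved by more than the spread between replicates as follows. The MCM list went from -0.84 to -0.57 with normexp and -1.07 within slide 1, the S phase list from -0.81 to -0.51 with normexp, and the M phase list from -0.59 to -0.35 with normexp and -0.89 within slide 1. The antimicrobial peptide list went from 0.90 to 0.21 with normexp, 0.10 with normexp and 75th percentile scaling, 1.17 at a mean signal over 100, 1.10 within slide 1 and 0.73 within slide 2. Over all features the median was -0.11 within slide 1 and 0.03 within slide 2. Leaving out 1 array gave -0.79 to -0.49 for the M phase list and 0.76 to 1.00 for antimicrobial peptides. Dim probes limit precision, since processed signals near background hold only a bound. Promoter motifs were planned and not run.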

Other observations

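The genes in this section were chosen after their values were seen, from all features called between the temperatures. They were picked one by one, and no list of genes of fork protection, DNA damage or piRNA was tested. timeout, the fly relative of the fork protection gene Timeless, stood at 8.04, 8.41 and 8.72 at 11 °C and 9.74, 9.76 and 9.91 at 14 °C, and Claspin, a mediator of the replication checkpoint, at 9.18, 9.72 and 10.27 at 11 °C and 11.02, 11.18 and 11.07 at 14 °C, with no overlap in either. The falls were 1.41 ± 0.16 and 1.37 ± 0.23 (SE, limma, adjusted p = 9.35e-04 and 0.00479). The call of timeout was kept whichever of the 12 arrays was left out, and that of Claspin was lost without replicate 2 at 11 °C or any single array at 14 °C. Ctf4, which ties the helicase to polymerase alpha, Fancd2 of the Fanconi anemia pathway, the helicase RecQ4 and Rad1 of the checkpoint clamp fell by 1.32, 1.20, 1.18 and 1.13. The call of Ctf4 was lost without any single array at 14 °C, that of Fancd2 was lost without replicate 1 or 2 at 11 °C or any single array at 14 °C, that of RecQ4 was lost without replicate 1 or 2 at 11 °C or any single array at 14 °C and that of Rad1 was lost without replicate 1 or 2 at 11 °C or any single array at 14 °C.

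Other called genes that fell were armi, fs(1)Yb and tej. armi, an RNA helicase of piRNA production, stood at 11.46, 11.78 and 12.50 at 11 °C and 13.14, 13.13 and 13.04 at 14 °C, and fs(1)Yb, a Tudor domain helicase of the somatic piRNA pathway, at 7.17, 7.22 and 7.58 at 11 °C and 8.65, 8.69 and 8.42 at 14 °C. tej, a Tudor domain protein, fell by 1.19. No array at 11 °C reached 14 °C in these 3 genes. The call of armi was lost without replicate 1 or 2 at 11 °C, any single array at 14 °C, replicate 2 or 3 at 25 °C or any single array at 30 °C, that of fs(1)Yb was kept whichever of the 12 arrays was left out and that of tej was lost without replicate 1 or 2 at 11 °C, any single array at 14 °C, replicate 2 at 25 °C or replicate 2 or 3 at 30 °C. With the replicate number as a block on 12 arrays armi and tej were not called.

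Among the rises, Zip99C, a ZIP family metal transporter, stood at 15.33, 14.94 and 15.01 at 11 °C and 13.76, 13.31 and 13.68 at 14 °C, a rise of 1.51 ± 0.17 (SE, 2.85-fold, adjusted p = 9.35e-04). Akh, the adipokinetic hormone, stood at 8.93, 8.70 and 8.64 at 11 °C and 7.59, 7.48 and 7.49 at 14 °C, and Spn27A, a serpin that restrains melanization and Toll signalling, at 9.80, 9.46 and 9.53 at 11 °C and 8.59, 8.27 and 8.45 at 14 °C. Cht4, a chitinase, rose by 1.43. The lipocalins NLaz and GLaz parted, NLaz at 9.05, 8.30 and 8.30 at 11 °C and 7.46, 7.27 and 7.05 at 14 °C and GLaz at 6.89, 6.39 and 6.83 at 11 °C and 8.11, 8.05 and 7.61 at 14 °C, changes of 1.29 ± 0.20 and -1.22 ± 0.18 (SE, adjusted p = 0.00376 and 0.00280). The call of Zip99C was kept whichever of the 12 arrays was left out, that of Akh was lost without replicate 2 at 14 °C, that of Spn27A was lost without replicate 2 at 14 °C, that of Cht4 was kept whichever of the 12 arrays was left out, that of NLaz was lost without any single array at 14 °C and that of GLaz was lost without replicate 1 or 2 at 14 °C.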
